A study of Mus musculus with 9 samples.

Results

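The 10 genes described here belong to the canonical Wnt pathway and were followed in the irradiated mouse submandibular gland: Axin2, Lgr5, Lef1, Tcf7, Nkd1, Znrf3, Rnf43, Sfrp1, Dkk3 and Tcim. They were listed by name as beta-catenin targets, inhibitors and the activator Tcim, and they are 10 of 54532 identifiers in the count table. All 10 were found, and 8 had enough counts to be tested; Lgr5 and Lef1 had not. The genes were chosen by name and role with earlier results of these data known. Among these results were the fitted log2 fold changes of Tcim between time points. The values of Tcim are therefore a description, given with no p-value. Bulk RNA sequencing had been carried out on submandibular glands of wild-type (WT) mice after 10 Gy of radiation. The 9 libraries form 3 groups, with 3 samples collected at 30 days, 3 at 60 days and 3 at 90 days after irradiation, and each library was made from RNA of 4 tissue sections of 50 µm. The labels give no age, sex or strain and do not state that the samples of a group were separate animals, so p-values measure only the spread between these samples. Non-irradiated glands, which the protocol mentions, were not analysed here. Every comparison is between irradiated glands, and time after irradiation cannot be told apart from age. The design text concerns degeneration that ends in lasting loss of gland function.

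In canonical Wnt signalling a secreted Wnt protein binds a Frizzled receptor together with Lrp5 or Lrp6. The destruction complex around Axin and Apc then stops marking beta-catenin for degradation, and beta-catenin enters the nucleus and acts with DNA-binding factors of the TCF/LEF family. Several genes switched on in this way feed back on the pathway: Axin2 rebuilds the destruction complex, Nkd1 acts on Dishevelled, and the membrane ubiquitin ligases Znrf3 and Rnf43 remove Frizzled from the cell surface. Lgr5 is a receptor for R-spondins, which clear Znrf3 and Rnf43. In the salivary gland the pathway is known for its part in branching during development and in ductal progenitor cells, and it has been studied as a target for protecting irradiated glands.

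The genes lie on 5 chromosomes of the GRCm38 build, and the GENCODE M21 annotation places them as follows. Axin2 (ENSMUSG00000000142) spans chr11:108920349-108950783 on the plus strand and Nkd1 (ENSMUSG00000031661) spans chr8:88521354-88594884 on the plus strand. Znrf3 (ENSMUSG00000041961) lies at chr11:5276324-5444847 on the minus strand and Rnf43 (ENSMUSG00000034177) at chr11:87662722-87735539 on the plus strand. Lgr5 (ENSMUSG00000020140) is at chr10:115450311-115587780 (minus), Tcf7 (ENSMUSG00000000782) at chr11:52252371-52283014 (minus) and Lef1 (ENSMUSG00000027985) at chr3:131110471-131224356 (plus). Sfrp1 (ENSMUSG00000031548) is at chr8:23411502-23449632 (plus), Dkk3 (ENSMUSG00000030772) at chr7:112116017-112159057 (minus) and Tcim (ENSMUSG00000056313) at chr8:24437180-24438984 (minus). Exons of Axin2, Lef1 and Tcim overlap an exon of a gene on the opposite strand. The partners of Axin2 (Gm11670) and Lef1 (Gm43352) had 0 counts in every library. The partner of Tcim, Gm26714, had between 1 and 11 counts per library, and the use of strand in counting is not given in the sources used here.

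The start regions of Axin2 and Nkd1 are shown because both genes are feedback targets of beta-catenin. Between 90 and 30 days Nkd1 had an adjusted p under 0.05 in edgeR and Axin2 had not. The difference between these genes was not tested, nor was a link between start region and level. RefSeq start windows (GRCm38.p6) were at hand for 5 of the 10 genes: Axin2, Lef1, Tcf7, Nkd1 and Rnf43. Each line gives the 250 bases before the annotated start on the strand of the gene, 5′ to 3′, with every CG dinucleotide in capitals. The Axin2 window is chr11:108920099-108920348 and the Nkd1 window chr8:88527383-88527632, both on the plus strand. The Nkd1 window lies inside the GENCODE span of the gene, so it precedes the RefSeq start and not the outermost annotated start.
Axin2: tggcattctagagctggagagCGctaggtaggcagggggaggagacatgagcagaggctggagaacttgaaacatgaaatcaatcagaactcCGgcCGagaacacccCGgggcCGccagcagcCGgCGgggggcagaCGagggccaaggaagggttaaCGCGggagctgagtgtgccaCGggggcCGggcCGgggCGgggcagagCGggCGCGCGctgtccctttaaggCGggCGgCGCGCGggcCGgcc
Nkd1: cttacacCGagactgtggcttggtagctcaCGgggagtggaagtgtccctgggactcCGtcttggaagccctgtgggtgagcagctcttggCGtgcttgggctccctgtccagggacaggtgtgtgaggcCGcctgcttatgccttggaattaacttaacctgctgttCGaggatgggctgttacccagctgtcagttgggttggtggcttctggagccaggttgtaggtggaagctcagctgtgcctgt
The Axin2 window held 24 CG dinucleotides and was 69.2% G or C, whereas the Nkd1 window held 6 and was 58.4% G or C. Over 32851 windows of this length the median was 6 CG dinucleotides, with quartiles of 2 and 16, and the median G and C content was 52.4%. On both strands 4 TCF/LEF heptamers were searched, which are CTTTGAA as well as CTTTGAT with T at its end, and in the same way CTTTGTA as well as CTTTGTT. None occurred in either sequence. Of 10 windows of the 5 genes, 1 held a match: CTTTGTA on the other strand, 147 bases before the start of a Lef1 transcript. Among all windows 14.8% held at least 1 match. A match or its lack in 250 bases describes the letters and not factor binding.

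The libraries held between 16541396 and 26065856 counts, and each was scaled with a TMM factor (trimmed mean of M-values) of 0.824 to 1.19. Values below are CPM, read counts per 1000000 counts of the scaled library, and a floor of 3 counts corresponded to 0.101 to 0.213 CPM. Genes of the acinar cells and of the granular convoluted ducts, which define the submandibular gland, were abundant in every library, and the summed level of sublingual gland markers was at most 1.16 CPM. In 2 libraries some sums stood apart. Sample 2 at 90 days had 15.9 CPM of T cell markers in sum and 59.6 CPM of B and plasma cell markers, against at most 7.23 and 18.0 CPM in the other 8 libraries. Sample 1 at 30 days had the lowest TMM factor and the highest acinar sum, 115414 CPM.

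Per length of annotated exon the genes spanned a wide range. Tcim was the most abundant at 22.7 ± 10.0 CPM per kb (SD over 9 libraries), followed by Rnf43 at 4.56 ± 0.488. Sfrp1 (2.16 ± 0.611) and Znrf3 (1.99 ± 0.155) did not differ beyond their spread, and with the longest transcript as the length Znrf3 stood above Sfrp1. Nkd1 (1.09 ± 0.331), Dkk3 (1.09 ± 0.513) and Tcf7 (0.958 ± 0.485) overlapped likewise. Axin2, the usual reporter gene of the pathway, stood at 0.479 ± 0.103 CPM per kb. Lef1 (0.0293 ± 0.0125) and Lgr5 (0.00678 ± 0.0120) were near or at the floor.

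**Figure D1:**
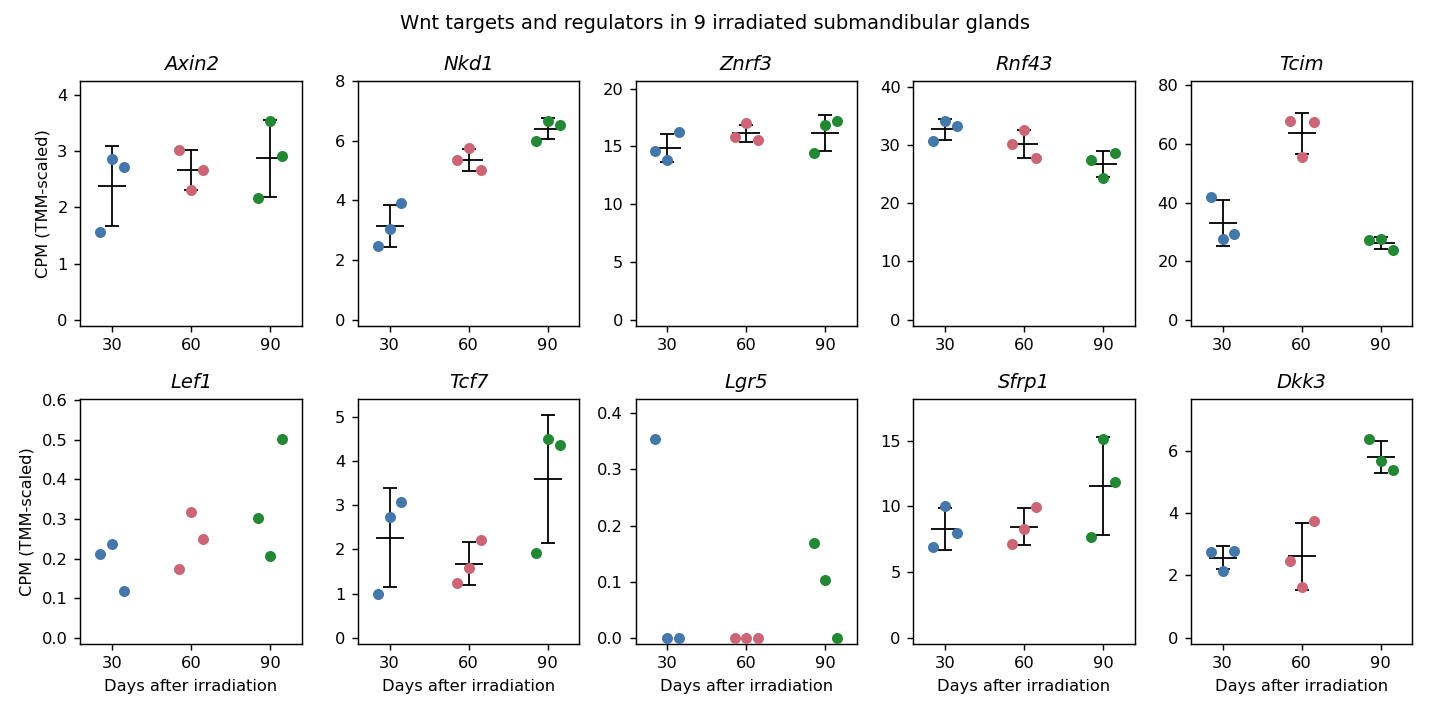
Expression of the 10 genes in 9 libraries, as CPM on the TMM-scaled library (vertical axis, a separate linear scale for each gene) against days after irradiation. Points are single samples, and for the 8 genes past the count filter the long bar is the mean and the short bars 1 SD (n = 3). Nkd1 was higher in every 60- and 90-day sample than in any 30-day sample, Dkk3 was high at 90 days alone, and Tcim was high at 60 days alone.

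Nkd1 was the feedback inhibitor whose level rose with time after irradiation. It encodes a protein that binds Dishevelled and dampens the Wnt signal. The 30-day samples held 2.48, 3.03 and 3.91 CPM, the 60-day samples 5.35, 5.74 and 5.01 CPM, and the 90-day samples 6.001, 6.67 and 6.53 CPM. All 3 groups were separate from each other in that order. The means were 3.14 ± 0.719, 5.37 ± 0.369 and 6.40 ± 0.352 CPM (SD, n = 3). At 90 days Nkd1 was 2.02-fold higher than at 30 days, or by 1.02 ± 0.21 (SE) on the log2 scale, with an adjusted p of 0.0108 (edgeR's quasi-likelihood test with Benjamini-Hochberg adjustment over 15224 genes). The step from 30 to 60 days was 0.77 ± 0.21 on the log2 scale (adjusted p = 0.0961) and that from 60 to 90 days 0.25 ± 0.20 (adjusted p = 0.698), neither of which passed the threshold of 0.05. With DESeq2 the first step of Nkd1 did pass (adjusted p = 0.0388). The raw counts behind these values ran from 35 in 30-day sample 1 to 194 in 90-day sample 2. Without 30-day sample 1, the lowest library, the difference between 90 and 30 days was 0.88 (adjusted p = 0.0696), and without 90-day sample 2 it was 0.98 (adjusted p = 0.0517). Beside this rise, the summed level of the granular convoluted duct markers was 20962 to 29002 CPM at 30 days. It was 41423 to 50335 CPM at 60 days and 36320 to 49658 CPM at 90 days. All 6 of these markers had positive estimates in both comparisons with 30 days, and 5 were called higher in each. Of all 15224 genes, 173 were called higher at 60 than at 30 days and 275 at 90 than at 30 days. The part of the duct marker shift in the Nkd1 result was not tested. In bulk tissue, fewer cells of a type and less RNA per cell cannot be told apart, and this holds for every gene here.

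Axin2, the scaffold of the destruction complex, showed no such separation. Its level was 1.56, 2.85 and 2.72 CPM at 30 days, 3.02, 2.31 and 2.67 CPM at 60 days, and 2.16, 3.54 and 2.91 CPM at 90 days. The 3 groups overlapped throughout. The log2 difference between 90 and 30 days was 0.26 ± 0.29 (SE; adjusted p = 0.738, edgeR), and the steps between adjacent time points were 0.16 ± 0.30 and 0.10 ± 0.28. The difference between 90 and 30 days was 0.04 without 30-day sample 1, 0.07 without 90-day sample 2 and 0.47 with scaling by library size. The sign of the first step turned to -0.06 without 30-day sample 1, and that of the second to -0.09 without 90-day sample 2. Within single libraries, the ratio of Nkd1 to Axin2 counts, which does not depend on the scaling, was 1.59, 1.06 and 1.44 at 30 days, 1.77, 2.49 and 1.88 at 60 days, and 2.78, 1.88 and 2.24 at 90 days. The ratio in each later sample was above all 3 at 30 days, and the 60- and 90-day ratios overlapped.

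Znrf3 and Rnf43, a pair of related membrane ubiquitin ligases, were the steadiest genes of the list. Znrf3 measured 14.6, 13.9 and 16.2 CPM at 30 days, 15.8, 17.0 and 15.6 CPM at 60 days, and 14.4, 16.8 and 17.2 CPM at 90 days. These groups overlapped, and the difference between 90 and 30 days was 0.12 ± 0.13 on the log2 scale (adjusted p = 0.731, edgeR). Rnf43 stood at 30.7, 34.2 and 33.3 CPM at 30 days, at 30.3, 32.6 and 27.8 CPM at 60 days, and at 27.4, 24.3 and 28.7 CPM at 90 days. Every 90-day sample lay below every 30-day sample, with the 60-day samples between and overlapping both. The log2 difference of Rnf43 between 90 and 30 days was -0.29 ± 0.11 (adjusted p = 0.171), which did not pass, and with scaling by library size alone it was -0.08. The within-library ratio of Rnf43 to Znrf3 counts was 2.10, 2.47 and 2.06 at 30 days, 1.91, 1.92 and 1.78 at 60 days, and 1.90, 1.44 and 1.67 at 90 days. Each 30-day ratio exceeded all 6 later ratios, a description of these libraries with no test.

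Tcim encodes a small protein known to bind Chibby, an inhibitor of beta-catenin, and so to release beta-catenin. It was high at 60 days alone: 67.9, 55.6 and 67.5 CPM, against 42.0, 27.6 and 29.4 CPM at 30 days and 27.3, 27.5 and 23.9 CPM at 90 days. No 60-day sample overlapped with any other sample, and 30-day sample 1 was the highest of the remaining 6. The means were 33.0 ± 7.84, 63.7 ± 6.96 and 26.2 ± 1.99 CPM (SD, n = 3). From 30 to 60 days the fitted log2 change of Tcim was 0.95 ± 0.14 (SE), and from 60 to 90 days it was -1.28 ± 0.14, a 2.42-fold difference. Relative to the mean of the 30- and 90-day levels the 60-day level was 2.17-fold higher, or 1.11 ± 0.12 on the log2 scale. Over the alternatives and left-out samples this difference ran from 1.06 to 1.22. The 90-day samples also lay below all 30-day samples, but by only -0.32 ± 0.14, a value that was -0.12 without 30-day sample 1 and -0.07 with scaling by library size. Set against Rnf43 in the same library, Tcim had a count ratio of 1.37, 0.807 and 0.881 at 30 days, 2.24, 1.71 and 2.43 at 60 days, and 0.998, 1.13 and 0.835 at 90 days, so the 60-day samples stood apart on a ratio that needs no scaling.

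Tcf7 and Lef1, the DNA-binding partners of beta-catenin among the members, were scarce. Their relatives in the wider list described below, Tcf7l2 and Tcf7l1, had means of 15.2 and 9.49 CPM over 9 libraries. Tcf7, known also as a factor of T cells, had 0.992, 2.73 and 3.08 CPM at 30 days, 1.25, 1.58 and 2.21 CPM at 60 days, and 1.92, 4.50 and 4.37 CPM at 90 days. The spread within each group was wide, with a coefficient of variation of 29.0% to 49.3%, and the groups overlapped. The log2 difference of Tcf7 between 90 and 60 days was 1.08 ± 0.39 (SE; adjusted p = 0.319, edgeR) and that between 90 and 30 days 0.64 ± 0.39 (adjusted p = 0.447). With no filter on low counts the first of these passed (adjusted p = 0.0447). Without 90-day sample 2 they were 0.87 and 0.43, and the second was 0.30 without 30-day sample 1. Lef1, its relative, had 3, 4 and 2 counts at 30 days, 4, 7 and 6 at 60 days, and 9, 6 and 10 at 90 days, from 0.118 to 0.502 CPM. Lef1 did not pass the count filter, so its differences were not tested. The T cell markers summed to 2.27 to 3.57 CPM at 30 days and 2.25 to 4.21 CPM at 60 days. At 90 days they summed to 5.46, 15.9 and 7.23 CPM in samples 1, 2 and 3. Here 6 of 6 tested markers had positive changes from either earlier time point, none past the threshold. Of all 15224 genes, 7631 were positive between 90 and 60 days and 7929 between 90 and 30 days. Cd3d was at 0 in all 30-day libraries. The part of T cells in the Tcf7 and Lef1 values was not tested.

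Lgr5, the R-spondin receptor that marks stem cells in several epithelia, had 5, 0 and 0 counts at 30 days, 0 in each 60-day sample, and 5, 3 and 0 at 90 days. The highest level was 0.354 CPM, and a count of 0 allowed a level of up to 0.125 to 0.178 CPM, depending on the library. These limits cover counting error only.

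**Figure D2:**
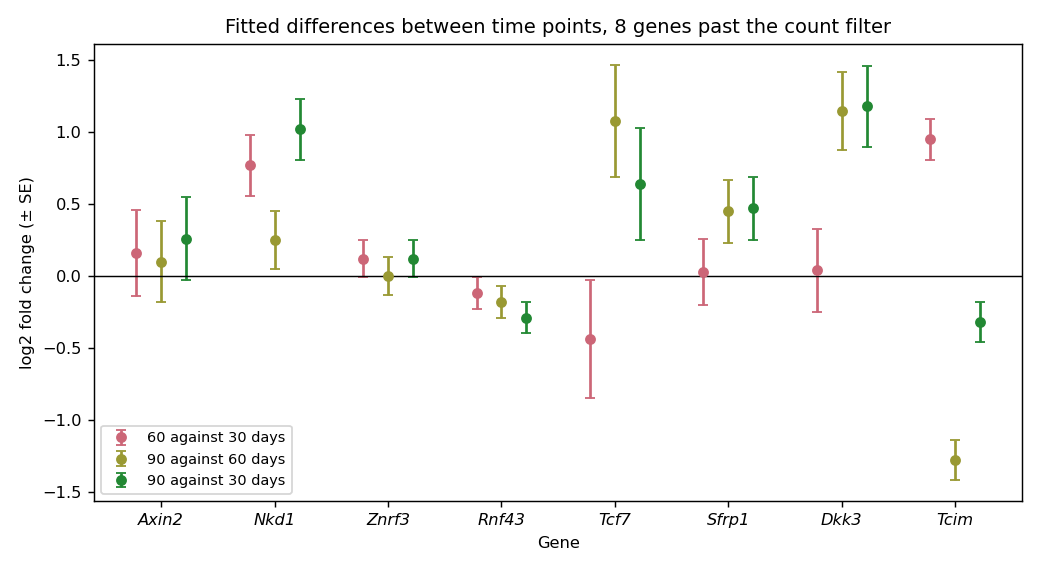
Fitted log2 fold changes (vertical axis) of the 8 genes past the count filter, for 60 against 30, 90 against 60 and 90 against 30 days. Points are the estimates of 1 fit over 9 libraries and bars are 1 SE. Nkd1 at 1.02 and Dkk3 at 1.18 are the highest values between 90 and 30 days, and Tcim rises by 0.95 and then drops by 1.28.

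The secreted regulators moved late or not at all. Dkk3 belongs to the Dickkopf family but is its divergent member, and its effect on Wnt signalling varies between cell types. It had 2.76, 2.14 and 2.78 CPM at 30 days, 2.46, 1.63 and 3.76 CPM at 60 days, and 6.37, 5.67 and 5.37 CPM at 90 days. All 90-day samples were higher than all earlier samples, and the 30- and 60-day groups overlapped. The means were 2.56 ± 0.366, 2.61 ± 1.07 and 5.81 ± 0.513 CPM (SD, n = 3), resting on counts of 36 to 189 per library. Dkk3 rose 2.27-fold between 30 and 90 days, or by 1.18 ± 0.28 (SE) on the log2 scale, with an adjusted p of 0.0198 (edgeR's quasi-likelihood test). From 60 to 90 days the change was 1.15 ± 0.27 (adjusted p = 0.0839) and from 30 to 60 days 0.04 ± 0.29 (adjusted p = 0.982). The call between 90 and 30 days was lost without 30-day sample 1 (adjusted p = 0.0659) or 2 (0.101), and without 90-day sample 1 (0.0567), 2 (0.0687) or 3 (0.0569), while its log2 fold change stayed between 1.06 and 1.41 in every setting run. The step from 60 to 90 days passed without 60-day sample 3 (1.49, adjusted p = 0.0142), with DESeq2 (adjusted p = 0.0102) and with no filter on low counts (adjusted p = 0.00286). It also passed in edgeR with a term for equal sample numbers, the replicate block (adjusted p = 0.0362). The summed fibroblast markers overlapped between the groups, at 341.9 to 548.1 CPM at 30 days, 331.6 to 484 CPM at 60 days and 422.5 to 492.7 CPM at 90 days. The summed basal and myoepithelial markers were 303.7 to 423 CPM at 30 days, 450.3 to 479.9 CPM at 60 days and 418.8 to 591.7 CPM at 90 days, and Trp63 alone of the 6 was called higher at 90 than at 30 days. From 60 to 90 days 6 of 6 markers had positive estimates in each of the fibroblast, basal and myoepithelial, endothelial and macrophage lists, with 0 called by edgeR. Of all 15224 genes, 7631 had positive estimates there. Between 90 and 30 days, where Dkk3 was called, 3 of 6 fibroblast and 6 of 6 basal and myoepithelial markers were positive. So were 4 of 6 endothelial and 5 of 6 macrophage markers, and 7929 of all genes. The acinar sum was 61476 to 115414 CPM at 30 days, 56998 to 73724 CPM at 60 days and 39961 to 55403 CPM at 90 days, so all 90-day sums lay below all earlier ones. Of its genes Aqp5 and Lpo were called lower and Amy1 higher between 90 and 30 days. The part of these lists in the Dkk3 result was not tested.

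Sfrp1, a secreted Frizzled-related protein that binds Wnt ligands, held 6.88, 9.99 and 7.99 CPM at 30 days, 7.17, 8.28 and 9.93 CPM at 60 days, and 7.65, 15.1 and 11.9 CPM at 90 days. Sample 1 at 90 days lay within the earlier range and the other 2 above it. The log2 difference of Sfrp1 between 90 and 30 days was 0.47 ± 0.22 (SE; adjusted p = 0.294, edgeR), and without 90-day sample 2 it was 0.22. Within libraries the ratio of Dkk3 to Sfrp1 counts was 0.402, 0.214 and 0.348 at 30 days, 0.343, 0.197 and 0.378 at 60 days, and 0.833, 0.375 and 0.453 at 90 days. On this ratio the 90-day samples overlapped with the earlier ones.

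Read against all genes, the calls among the 7 tested members other than Tcim were few. Between 60 and 30 days edgeR called 0 of 7, where it called 1.56% of all 15224 genes. An unadjusted p under 0.05 was found for 1 of the 7 and for 1883 of all genes. DESeq2 called 1 of the 7 (Nkd1) and 376 of all genes. Between 90 and 60 days edgeR called 0 of the 7, where it called 0.256% of all genes. Here 2 of the 7 and 1637 of all genes had an unadjusted p under 0.05. DESeq2 called 1 of the 7 (Dkk3) and 150 of all genes. For 60 days against the mean of 30 and 90 days edgeR called 0 of the 7 and 0.256% of all genes. An unadjusted p under 0.05 was found for 2 of the 7 and for 1439 of all genes. DESeq2 called 0 of the 7 and 148 of all genes. It gave no adjusted p for Axin2, Dkk3 and Tcf7 in this comparison, and these were counted as not called. Between 90 and 30 days edgeR called 2 of the 7, Nkd1 and Dkk3, both higher, where it called 3.57% of all genes and 1.81% as higher. Without 30-day sample 1, or without 90-day sample 2, neither passed the threshold, with the values given above for Nkd1 and Dkk3. Groups without overlap were found for 1 of the 7 between 60 and 30 days, where 16.9% of all genes had them, and for 2 between 90 and 60 days, where 15.9% had them. Between 90 and 30 days 3 had no overlap, Nkd1 and Dkk3 upwards and Rnf43 downwards, against 23.2% of all genes. None of the 7 had 60-day values apart from all others, which 3.72% of all genes had. The median log2 fold change of the 7 members was 0.04, 0.25 and 0.47 in the order 60 against 30, 90 against 60 and 90 against 30 days, and the median of all genes was -0.00, 0.00 and 0.01. These medians moved with single libraries. The members' median between 90 and 30 days was 0.30 without 30-day sample 1 and 0.22 without 90-day sample 2, and between 60 and 30 days it turned to -0.06 without 30-day sample 1 or 60-day sample 3. With scaling by library size it was 0.69 between 90 and 30 days and 0.43 between 90 and 60 days, and all genes together shifted to medians of 0.24 and 0.17. These comparisons share groups, so they are not independent of each other.

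A wider list of 94 other Wnt pathway genes, of which 75 were tested, is given for context. It too was drawn up with earlier results known. Between 60 and 30 days 1 of 75 was called, Fzd7, which was lower, as were 0.427% of all genes. Between 90 and 30 days 3 of 75 were called, Fzd4, Ptk7 and Bcl9l, all of them lower, as were 1.77% of all genes. The direction of that count varied with the setting, with 1 higher and 0 lower under library-size scaling, 2 higher and 4 lower with DESeq2, 3 higher and 4 lower with no filter on low counts, 2 higher and 1 lower without 30-day sample 3, and 1 higher and 2 lower without 90-day sample 1. Between 90 and 60 days edgeR called 0 of 75 and 39 of all 15224 genes. An unadjusted p under 0.05 was found for 13 of the 75 and for 1637 of all genes. DESeq2 called 1 of the 75 and 150 of all genes. For 60 days against the mean of 30 and 90 days edgeR called 0 of 75 and 39 of all genes. Here 9 of the 75 and 1439 of all genes had an unadjusted p under 0.05. DESeq2 called 2 of the 75 and 148 of all genes. The median log2 fold change of the 75 genes was -0.01, 0.02 and 0.02 for 60 against 30, 90 against 60 and 90 against 30 days. Between 90 and 30 days 43 genes had positive and 32 negative estimates.

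The called pathway genes were receptors and a nuclear cofactor. Fzd7, a Frizzled receptor, measured 65.4, 63.4 and 63.9 CPM at 30 days, 43.9, 50.2 and 50.2 CPM at 60 days, and 53.1, 60.7 and 61.3 CPM at 90 days, lowest in each 60-day sample. It fell by 0.42 ± 0.10 on the log2 scale between 30 and 60 days (SE; adjusted p = 0.0401, edgeR). Fzd4, a Frizzled that also receives the ligand norrin, had 38.4, 36.3 and 34.2 CPM at 30 days, 30.7, 34.3 and 32.5 CPM at 60 days, and 29.4, 26.7 and 26.8 CPM at 90 days. Its groups at 30 and 90 days were separate, and it fell by 0.39 ± 0.10 (adjusted p = 0.0405). Ptk7, a kinase-dead coreceptor, went from 28.3, 24.6 and 31.2 CPM at 30 days to 21.3, 20.6 and 19.1 CPM at 90 days, a fall of 0.46 ± 0.12 (adjusted p = 0.0359). Bcl9l, which couples beta-catenin to Pygopus, went from 64.1, 66.9 and 65.4 CPM to 52.4, 48.5 and 47.1 CPM, a fall of 0.41 ± 0.10 (adjusted p = 0.0257). With scaling by library size none of these 4 passed: the log2 difference was -0.36 for Fzd7 (adjusted p = 0.591), -0.16 for Fzd4 (0.591), -0.23 for Ptk7 (0.478) and -0.18 for Bcl9l (0.541). With limma-voom Fzd7 (adjusted p = 0.0559), Fzd4 (0.052) and Ptk7 (0.0504) did not pass, and Fzd7 did not with the 6 samples of the comparison alone (0.0719). The Fzd7 call was also lost without any 1 of the 30-day samples, 60-day sample 1 or 2, or 90-day sample 2 or 3, and that of Fzd4 without 30-day sample 1 or 2, 60-day sample 2, or 90-day sample 2 or 3. The Ptk7 call was lost without 30-day sample 1 or 3, 60-day sample 2 or any 90-day sample, and that of Bcl9l without any 30-day sample or 90-day sample 2 or 3.

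**Figure D3:**
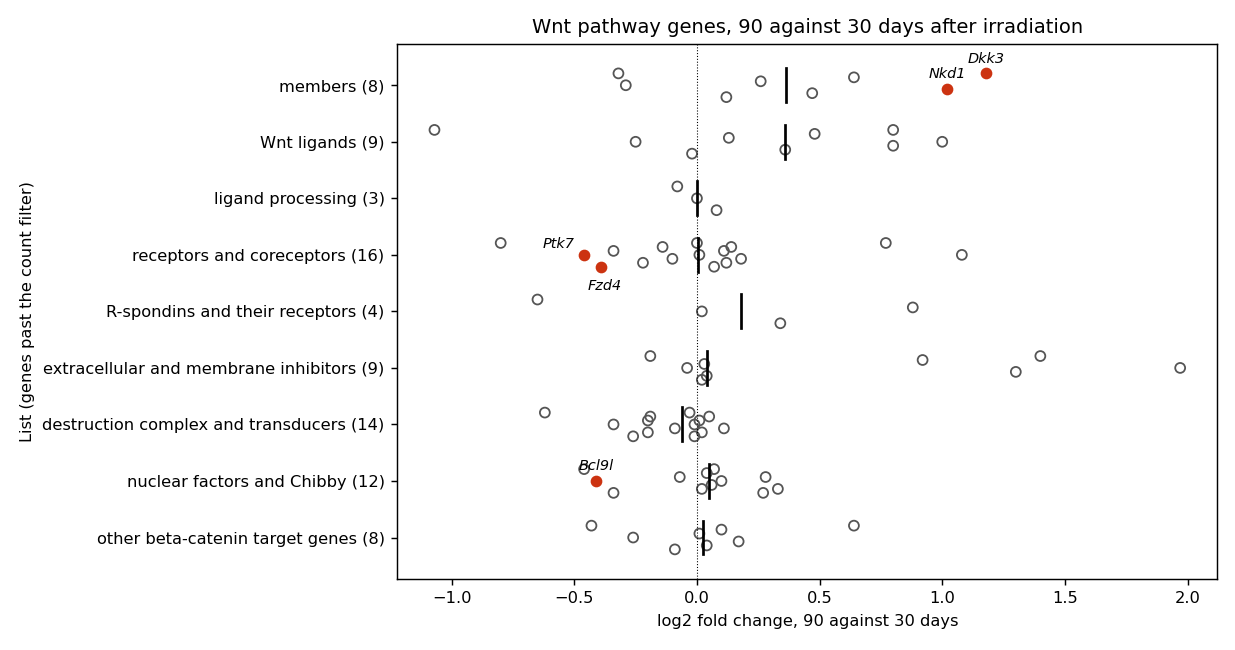
Log2 fold changes between 90 and 30 days (horizontal axis) of the 8 members and of the 75 tested genes of the wider Wnt list, by role. Each circle is a gene, vertical bars are medians, and filled circles have an adjusted p under 0.05 in edgeR's quasi-likelihood test (not assigned to Tcim). Nkd1 and Dkk3 are the filled circles above 0, and Ptk7, Fzd4 and Bcl9l those below it.

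By role, the ligands were the group with the most genes out of reach: 9 of 19 were tested, and Wnt8b was at 0 in every library. The most abundant ligand was Wnt4, with means at 30, 60 and 90 days of 67.9 ± 6.22, 86.0 ± 9.55 and 86.9 ± 10.9 CPM (SD, n = 3) and a log2 difference of 0.36 ± 0.12 between 90 and 30 days that did not pass (adjusted p = 0.104, edgeR). Among 14 extracellular and membrane inhibitors, Dkk4 and Sost were at 0 in every library and 9 were tested. From 30 to 60 days 3 of these 9 had positive and 6 negative estimates, with a median of -0.35 on the log2 scale. Over the whole span from 30 to 90 days 7 were positive and 2 negative, with a median of 0.04. For 60 days against the mean of 30 and 90 days 1 was positive and 8 were negative (median -0.37). All 9 had positive estimates between 90 and 60 days, with a median of 0.55. Of these, 0 were called by edgeR there, with 2 at an unadjusted p under 0.05. In the same comparison 7631 of 15224 genes had positive estimates, 1637 had an unadjusted p under 0.05 and edgeR called 39. Positive estimates were also found for 6 of 6 markers in each of the macrophage, fibroblast, endothelial, basal and myoepithelial, and T cell lists. The part of these cells in the inhibitor values was not tested. For Kremen1, the most abundant of the tested inhibitors, the group means in order of time were 14.8 ± 0.74, 13.5 ± 1.80 and 15.2 ± 1.48 CPM. Ctnnb1, which encodes beta-catenin itself, stood at 222.8 ± 8.10, 241.7 ± 23.6 and 231.1 ± 9.55 CPM at 30, 60 and 90 days. None of 14 genes of the destruction complex and its transducers was called by edgeR between 90 and 30 days, with 0 at an unadjusted p under 0.05. Of all 15224 genes, edgeR called 544 between these time points, and 2560 had an unadjusted p under 0.05. Among 10 other beta-catenin targets 8 were tested and 0 called in that comparison, with 2 at an unadjusted p under 0.05. The most abundant of these, Cd44, had means of 132.7 ± 11.4 CPM and 98.5 ± 19.4 CPM at 30 and 90 days, a log2 difference of -0.43 ± 0.13 (adjusted p = 0.0713). The transporter of Wnt ligands Wls, the coreceptor Lrp6, the R-spondin receptor Lgr4 and the corepressor Tle3 led the remaining groups, with mean levels over 9 libraries of 58.0, 65.5, 24.5 and 57.7 CPM, and none of the 4 was called.

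For Nkd1, Dkk3 and Tcim, the genes with the most similar course over the 9 libraries were sought among 13019 genes with a mean of at least 1 CPM. The measure was the root mean square difference of log2 CPM after each gene was centred on its own mean, where a smaller value is a closer course. Closest to Nkd1 were Hhatl (0.10), D430042O09Rik (0.11) and Cpe (0.12), while Nkd1 itself varied about its mean by 0.47 on the same scale. Hhatl is related to the enzyme that acylates hedgehog, and Cpe is the carboxypeptidase that trims peptide hormones. Hhatl had 14.2 ± 2.11, 23.3 ± 2.02 and 27.5 ± 2.37 CPM at 30, 60 and 90 days. For Dkk3, with a variation of 0.63, the closest were Adamtsl2 (0.23), Gprasp2 (0.23) and H2-Q5 (0.29). Adamtsl2, a protein of the extracellular matrix, had 2.06 ± 0.401, 1.98 ± 0.531 and 3.40 ± 0.342 CPM. For Tcim, which varied by 0.57, the closest were Hs3st1 (0.21), Dusp5 (0.24) and Gm6560 (0.28). Hs3st1, a heparan sulphate sulfotransferase, had 9.95 ± 2.23, 22.3 ± 3.11 and 9.48 ± 1.69 CPM, and Dusp5, a phosphatase of ERK, 15.2 ± 1.32, 31.7 ± 1.16 and 10.8 ± 3.38 CPM. The genes share libraries and scaling, so a small difference describes these 9 samples only.

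**Figure D4:**
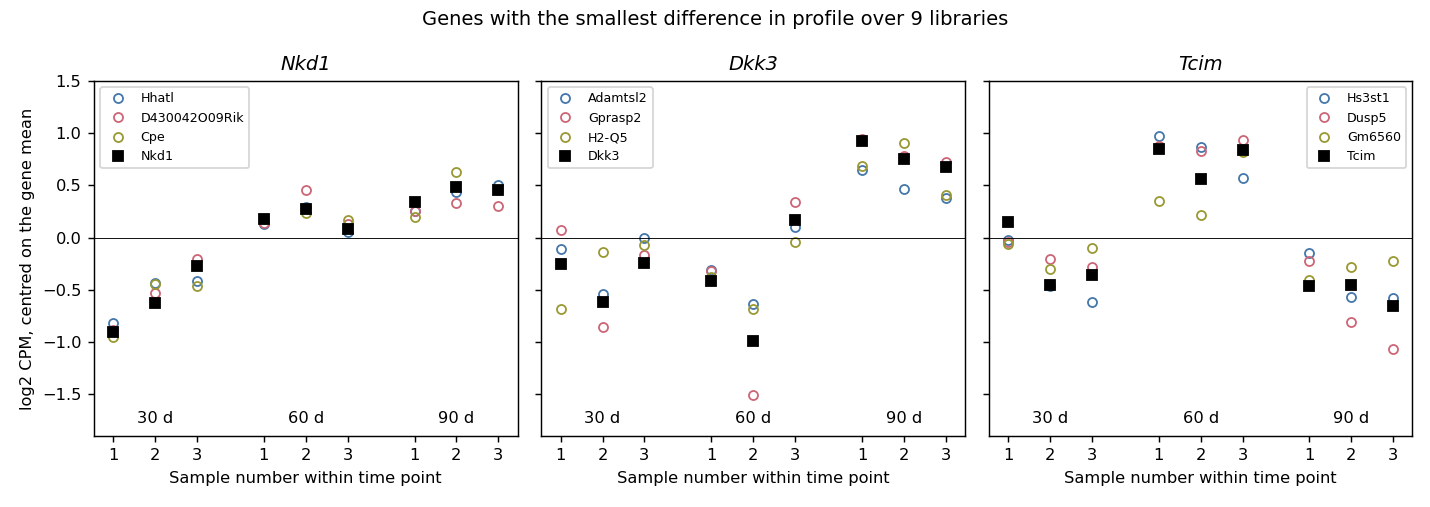
Log2 CPM centred on the gene mean (vertical axis) in each of 9 libraries (horizontal axis, sample number within each time point) for Nkd1, Dkk3 and Tcim as filled squares and for the 3 genes with the smallest difference in profile as open circles. The circles of Nkd1 follow its squares most closely, with differences of 0.10 to 0.12, and those of Dkk3 and Tcim lie farther off, at 0.21 to 0.29.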

How the data were processed

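RNA was measured in 9 libraries in 3 groups taken from the titles. The authors deposited raw read counts for 54532 genes; fastp, STAR, featureCounts and mm10 are named in the submitters' processing notes, with no version or strand setting. Symbols were found for 54409 identifiers, and 3 columns of no listed sample were not used. Genes were filtered with filterByExpr (minimum count 10, 15224 left), scaled with TMM and tested with edgeR 4.0.16 (quasi-likelihood, robust, 1 fit over 9 libraries, Benjamini-Hochberg adjustment over all genes tested, threshold 0.05; biological coefficient of variation 0.150) in R 4.3.3. Standard errors of the log2 fold changes, those of Tcim included, were derived from the F statistic of the edgeR test. Library totals of 16541396 to 26065856 counts set the precision. A single gene, Mucl2, took 31.4% (90-day sample 2) to 42.8% (30-day sample 1) of the counts of a library.

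Members and gene lists were chosen with earlier results of these data known. Named were all members, called or most abundant pathway genes of each of 8 sublists, and the 3 nearest profiles (log2 CPM, prior count 2) of Nkd1, Dkk3 and Tcim. Of the 13 marker lists (75 genes), those for macrophages (104.3 to 230.8 CPM), endothelium (63.6 to 93.1), ducts (1554 to 2240), Schwann cells (29.3 to 37), adipocytes (0 to 3.09) and skeletal muscle (1.61 to 3.08) had no values by group set beside a member.

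Alternatives were scaling by library size or by size factors of the DESeq2 type, DESeq2 1.42.0, limma-voom 3.58.1, no filter, the 6 samples of a contrast alone, a stricter filter, the replicate block and leaving out each sample.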

Additional observations from a re-analysis of the deposited data

Results flagged for a closer look

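Tcim went one way between 30 and 60 days and the other way between 60 and 90 days, with every 60-day sample above every other sample. Its 60-day level exceeded the mean of the 30- and 90-day levels by 1.11 on the log2 scale. The change of Tcim was known when the genes were chosen, so the difference is given without a p-value. Tcim was flagged because its 60-day samples lay apart from all others. Other genes were flagged only with an adjusted p under 0.05 in edgeR, which 0 of 7 members and 0 of 75 pathway genes had. Separate 60-day values were also found for 6 of the 75 pathway genes, all lower, and for 3.72% of all genes.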

How the results depend on the processing

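No call of a member or of a pathway gene that is named changed sign in the settings run. The called marker genes were not followed over these settings. Between 60 and 30 days 238 genes were called, and 90 with library-size scaling (79 higher, 11 lower, against 173 and 65), 376 with DESeq2, 152 with limma-voom, 459 with no filter and 73 to 244 with a sample left out (102, 132 and 147 without 30-day sample 1, 2 or 3, and 73 without 60-day sample 2). For 90 against 60 days the counts were 39, 150 with DESeq2, 354 with no filter, 92 with the replicate block and 16 to 103 with a sample left out (87 without 30-day sample 1, 19 and 103 without 60-day sample 2 or 3, 16 without 90-day sample 2), and library-size scaling gave 19 higher and 9 lower against 14 and 25. For 90 against 30 days they were 544, 867 with DESeq2, 1045 with no filter and 184 to 703 with a sample left out (184 and 333 without 30-day sample 1 or 2, 190 and 246 without 90-day sample 2 or 3), and library-size scaling gave 406 higher and 34 lower against 275 and 269. For 60 days against the mean of 30 and 90 days they were 39, 20 with library-size scaling, 148 with DESeq2, 230 with no filter, 73 with the block and 13 to 81 with a sample left out (13 and 81 without 60-day sample 2 or 3). Library-size scaling moved the median of all genes to 0.24 between 90 and 30 days and 0.17 between 90 and 60 days on the log2 scale.

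Among the 7 tested members other than Tcim, DESeq2 called 1 between 60 and 30 days (Nkd1). Between 90 and 60 days DESeq2 called 1 (Dkk3), no filter 2 (Dkk3 and Tcf7), the replicate block 1 (Dkk3, adjusted p = 0.0362) and left-out samples 0 to 1. Between 90 and 30 days left-out samples gave 0 to 2, with 0 without 30-day sample 1 or 90-day sample 2. In the wider list, the count between 60 and 30 days was 0 with library-size scaling, limma-voom or the 6 samples alone, 2 with DESeq2 and 0 to 1 with a sample left out. Between 90 and 60 days it was 1 with DESeq2, 2 with no filter and 0 to 1 with a sample left out. Between 90 and 30 days it was 1 with library-size scaling or limma-voom, 6 with DESeq2 or the block (3 higher and 3 lower with the block), 7 with no filter and 0 to 3 with a sample left out, with 0 without 30-day sample 1 or 90-day sample 2. For 60 days against the mean DESeq2 gave 2. The cause was not tested.

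Equal sample numbers deviated together by correlations of -0.060 to 0.191. The labels do not say whether equal numbers are matched, and with 3 samples a group these correlations cannot decide it. The 6 samples alone could not be run for 60 days against the mean. Lgr5 and Lef1 were limited by depth.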

Other observations

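Some secreted inhibitors outside the list of 10 had wide differences between 90 and 30 days that did not pass the threshold. They were chosen after their values were seen. Sostdc1, an antagonist of both BMP and Wnt signals, had 0.921, 2.32 and 3.02 CPM at 30 days and 3.20, 5.36 and 7.23 CPM at 90 days, with separate groups and a log2 difference of 1.30 ± 0.36 (SE; adjusted p = 0.0556, edgeR). Sfrp2, a relative of Sfrp1, had 1.70, 2.56 and 3.73 CPM at 30 days and 4.25, 5.60 and 5.42 CPM at 90 days, a difference of 0.92 ± 0.30 (adjusted p = 0.0958). Wif1, which binds Wnt ligands, had 0.425, 0.238 and 1.60 CPM at 30 days and 1.05, 4.16 and 3.87 CPM at 90 days, with overlapping groups (1.97 ± 0.88, adjusted p = 0.305).

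The receptor gene Fzd10 had 2.69, 2.50 and 3.14 CPM at 30 days, 3.54, 4.16 and 4.34 CPM at 60 days, and 4.11, 5.16 and 4.97 CPM at 90 days. Its 30-day samples were below all later samples, and the difference between 90 and 30 days was 0.77 ± 0.23 (adjusted p = 0.0673, edgeR).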
